A study of Homo sapiens with 12 samples.

Results

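Sites bound by myc-tagged wild type QKI-5 were compared with sites bound by the QKI protein that the cells make themselves. QKI (Quaking) is an RNA-binding protein of the STAR family, which contacts RNA through a KH domain and its flanking QUA regions. It recognises a short bipartite element in introns and 3′ UTRs and is known for control of alternative splicing, circular RNA formation and mRNA stability, and QKI-5 is its nuclear isoform. The comparison rests on 4 immunoprecipitation libraries of the 12 samples in the series, 2 of tagged QKI-5 and 2 of endogenous QKI. The assay was eCLIP (enhanced crosslinking and immunoprecipitation). Proteins are fixed to RNA by UV light and precipitated, and the RNA that comes with them is sequenced together with an input of the same size range. A cluster is a stretch of the genome with piled-up reads, and its fold is the log2 ratio of immunoprecipitated to input reads that the authors deposited.

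All cells were of the HEK293T line, a human embryonic kidney line called HEK293xT in the sample labels, grown in 10 cm plates and crosslinked at 254 nm with 400 mJ/cm2. For the tagged libraries the cells received 10 µg of the myc-QKI-5 plasmid by transient transfection, were kept for 72 hours and were precipitated with an anti-MYC antibody. For the endogenous libraries unmodified cells were precipitated with an anti-QKI antibody, and untransfected cells precipitated with anti-MYC are not analysed here. The antibody and the transfection therefore cannot be told apart, and the transfected cells also kept their own QKI gene. The amount of tagged protein, and which QKI isoforms the anti-QKI antibody takes up, are not known from the labels. Tagged QKI-5 with K120A and R124A exchanged (amino acids and their residue numbers), precipitated with the same anti-MYC antibody from cells transfected in the same way, serves below as a background for the tag.

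A series note names embryonic stem cells in cardiomyocyte differentiation, while the sample labels name the kidney line. Of 10 pluripotency genes, 0 and 1 had a cluster above input in the tagged libraries. In the endogenous libraries 1 and 0 had one, and POU5F1 and NANOG had none in any of the 4. Of 11 cardiomyocyte genes, 2 and 2 had one in the tagged and 3 and 4 in the endogenous libraries. ACTN2 and RYR2 had one in all 4 libraries, and TNNT2, TNNI3, MYH6, MYH7, MYL7, MYL2 and NPPA had none. Of 7 genes known from HEK293 cells, 2 and 2 had one in the tagged and 6 and 5 in the endogenous libraries. NEFM and LIN28B had one in all 4 libraries, and KRT18 had none. In the tagged libraries the counts were thus the same for both lists. Clusters numbered 226962 and 273269 in the tagged libraries and 384347 and 231844 in the endogenous libraries. Read depth is unknown. Separate cultures are not stated for libraries 1 and 2, and their spread may be technical. With 2 libraries against 2 the smallest two-sided p an exact permutation test can give is 0.33, so no comparison of library totals or shares below can pass 0.05.

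A cluster was called enriched when its log2 fold and its −log10 p were both at least 3. Endogenous QKI gave more enriched clusters than tagged QKI-5 did. There were 4698 and 5171 in the tagged libraries, a mean of 4934 ± 334 (SD, n = 2), and 16231 and 12504 in the endogenous libraries, a mean of 14368 ± 2635 (SD, n = 2). The groups did not overlap, and the ratio of the means was 2.91 (exact permutation p = 0.33). The enriched clusters themselves had similar sizes. Their median width was 100 and 101 bases in tagged and 111 and 107 bases in endogenous libraries. Their median log2 fold was 3.87 and 3.83 in tagged against 3.97 and 4.09 in endogenous libraries. The cut at 3 bounds these folds from below, so their closeness is no measure of equal binding. The substituted protein had medians of 3.78 and 3.28 under the same cut, over 94 and 829 enriched clusters.

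Enriched clusters of the tagged protein were found among those of the endogenous protein, a longer list, about as often as among those of the other tagged library. Clusters on the same strand were matched by an overlap of at least 1 base. Of the enriched clusters of the first tagged library, 57.9% were also enriched in the second tagged library, 65.3% in the first endogenous library and 61.7% in the second. Of those of the second tagged library, 53.4% were enriched in the first tagged library, 55.0% in the first endogenous library and 51.3% in the second. In the reverse direction the shares were lower. Between 22% and 26.6% of enriched endogenous clusters were enriched in a tagged library, against 67.0% and 77.5% between the endogenous libraries. Over the 4 pairs of libraries the mean was 58.4% ± 6.33 (SD, n = 4) for tagged in endogenous and 24.2% ± 1.86 (SD, n = 4) for endogenous in tagged, and these pairs share libraries. The lists are of unequal length, with 4698 and 5171 enriched clusters in the tagged and 16231 and 12504 in the endogenous libraries. The longer endogenous lists make a match to them easier, and the shorter tagged lists bound the share of endogenous in tagged. Shares within and across groups are therefore not on equal terms.

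Most enriched endogenous clusters had a listed cluster in the tagged libraries, with lower median folds. The values that follow cover all enriched clusters, those with an enriched match included. A cluster of some fold above 0 was listed in a tagged library at 79.2% and 75.8% of the enriched clusters of the first endogenous library and at 82.7% and 80.0% of those of the second, with median log2 folds from 2.44 to 2.58. Conversely, an endogenous cluster was listed at 95.1% and 91.1% of the enriched clusters of the first tagged library and at 90.2% and 84.1% of those of the second, with medians from 3.72 to 4.06. A cluster of the K120A and R124A protein was listed at 7.68% to 10.3% of the enriched clusters of any of the 4 libraries. At endogenous clusters the tagged wild type protein was thus listed far more often than the substituted protein pulled down by the same antibody.

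Joining all enriched clusters of the 4 libraries that overlapped on the same strand gave 18887 sites, which were sorted by where they were enriched. Shared sites, enriched in all 4 libraries, numbered 1595 (8.44%). Tagged-only sites, enriched in both tagged and neither endogenous library, numbered 566 (3.0%), and endogenous-only sites, enriched in both endogenous and neither tagged library, numbered 5066 (26.8%). The names refer to passing the thresholds, not to a lack of signal in the other group. The other 11660 sites (61.7%) were mixed, meaning that the libraries of a group differed among themselves. Among the mixed sites, 7139 were enriched in 1 endogenous library alone, 2280 in 1 tagged library alone, 657 in 1 of each, 1316 in both endogenous and 1 tagged library, and 268 in both tagged and 1 endogenous library. Since 987 sites directly abutted another, neighbouring sites can share a cluster and are not independent.

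The chance that an endogenous site was also a tagged site followed its endogenous fold. Of the 7977 sites enriched in both endogenous libraries, 29.7% were enriched in the first and 26.8% in the second tagged library, a mean of 28.2% ± 2.09 (SD, n = 2). Among the 3056 sites with a mean endogenous log2 fold of 3 to 4 the shares were 15.0% and 13.7%, and among the 3489 at 4 to 5 they were 28.7% and 24.5%. They were 58.1% and 54.4% of 1047 sites at 5 to 6, 77.6% and 74.4% of 281 sites at 6 to 7, and 93.4% and 91.2% of the 91 sites at 7 or more. The shares were higher at each step in both tagged libraries, and the difference between the tagged libraries was small beside the difference between steps. The 2429 sites enriched in both tagged libraries gave the same order in the endogenous libraries, at higher levels throughout. The longer endogenous lists make a match easier in this direction. There 63.2% and 58.1% of 1107 sites at a tagged fold of 3 to 4 were enriched in the endogenous libraries, 93.7% and 93.3% of 268 at 5 to 6, and 26 of 26 at 7 or more in each library. The plot of these shares by fold shows both directions. No site of the strongest tagged group was missed by the endogenous libraries, although with 26 sites the exact 95% interval reaches down to 86.8%.

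**Figure D1:**
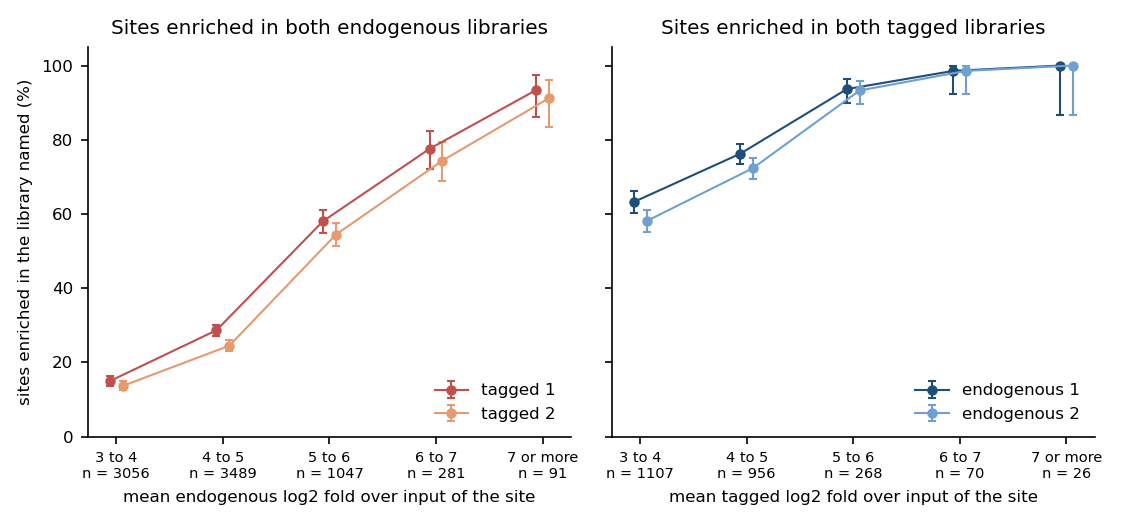
Share of sites (%) that were also enriched in each library of the other group, by the mean log2 fold over input in the group where the site was enriched in both libraries. Points are libraries and bars are exact 95% binomial intervals for counting error; the share in the first tagged library climbs from 15.0% at folds of 3 to 4 to 93.4% at 7 or more, and that in the first endogenous library from 63.2% to 100%.

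Folds at shared sites were lower for tagged QKI-5. Over the 1595 shared sites the median log2 fold was 4.25 and 4.25 in the tagged libraries and 4.94 and 4.92 in the endogenous libraries. Site by site, the median difference of a tagged from an endogenous library lay between -0.59 and -0.64, against 0.04 between the tagged and 0.00 between the endogenous libraries. The folds also followed each other less closely across groups. Pearson's r over the 1595 sites was 0.57 between the tagged and 0.69 between the endogenous libraries, and 0.41 to 0.44 across the groups, where the points share libraries and every site had to pass the same thresholds. The substituted protein had a listed cluster at 12.1% and 12.5% of the shared sites and was enriched at 10 and 11 of the 1595.

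At most tagged-only and endogenous-only sites the other group still had a listed cluster, with a lower fold. At the 566 tagged-only sites the median log2 fold was 3.804 and 3.832 in the tagged libraries. In the endogenous libraries 85.9% and 76.7% of these sites had a listed cluster, with medians of 2.19 and 2.15, and 405 (71.6%) had a cluster above input in both. The endogenous fold was 2 to 3 at 215 and 182 of the 566 sites and 0 to 2 at 186 and 168. At 61 sites (10.8%) neither endogenous library listed a cluster, and at 73 and 82 sites the endogenous fold reached 3 but its −log10 p did not. At the 5066 endogenous-only sites the medians were 4.01 and 4.02 in the endogenous libraries and, where listed, 2.00 and 1.94 in the tagged libraries. A tagged cluster was listed at 80.7% and 76.6% of them and in both tagged libraries at 3486 (68.8%), while 580 (11.4%) had none in either. The tagged fold was 0 to 2 at 2133 and 2000 of them and 2 to 3 at 1631 and 1577, and at 325 and 306 it reached 3 without the −log10 p. The tagged lists hold no cluster at or below 0, so a missing tagged cluster may be absent or not above input. Mutant clusters were listed at 5.12% and 4.95% of the tagged-only sites and passed the thresholds at 2 and 2 of them.

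The folds of the 12386 sites with a cluster above 0 in all 4 libraries were compared with limma. The difference, tagged minus endogenous, had a median of -1.25 on the log2 scale with standard errors of 0.75 to 0.91 per site. At an adjusted p of 0.05, 249 sites (2.01%) were higher in tagged and 3315 (26.8%) higher in endogenous libraries, with called differences of at least 1.91 in size. Most sites entered through an endogenous library, 12205 of 18887 being enriched in no tagged library, and this choice bears on the median. With each library centred on its own median fold, 731 sites (5.90%) were higher in tagged and 191 (1.54%) higher in endogenous libraries. All 249 sites higher in tagged passed on both scales, and of the 3315 higher in endogenous 191 did. The calls rest on both tagged libraries, since without the first or the second no site passed in limma (442 and 3673 sites, and 336 and 3306 sites, had an unadjusted p of 0.05 or less in the 2 directions). Without the first endogenous library 81 and 1436 sites passed, and without the second 112 and 1663. The classes were formed from these same folds, so calls by class are a description, and differences at single tagged-only and endogenous-only sites are given below without a p. Of the 249 sites higher in tagged, 132 were tagged-only, 110 mixed and 7 shared, and of the 3315 higher in endogenous, 2086 were endogenous-only, 1066 mixed and 163 shared.

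**Figure D2:**
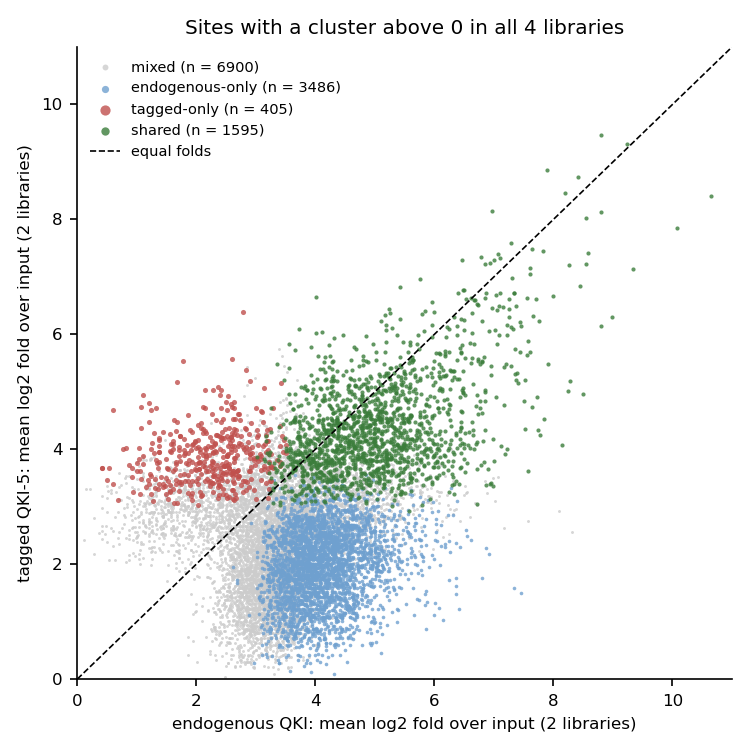
Mean log2 fold over input of tagged QKI-5 (vertical) against endogenous QKI (horizontal) at the 12386 sites with a cluster above 0 in all 4 libraries, each point 1 site coloured by class. The 1595 shared sites lie along and mostly under the line of equal folds, the 3486 endogenous-only sites spread below it, and the 405 tagged-only sites lie above it at endogenous folds under about 4.

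The strongest shared sites had folds far above the threshold in every library. In MICAL3, the gene of a monooxygenase that oxidises actin, a distal intron held such a site (chr22:18359511-18359935, hg19 as all positions here), where the log2 fold was 9.11 and 9.50 in the tagged and 9.14 and 9.33 in the endogenous libraries. RAB7A, a GTPase of late endosomes, had a distal intronic site (chr3:128470934-128471186) with 9.51 and 9.44 against 7.96 and 9.64. KDM5A, a histone demethylase, had one (chr12:441795-442033) with 8.30 and 8.62 against 8.63 and 7.75. The groups overlapped at these sites, and the limma differences of 0.07, 0.68 and 0.27 did not pass (adjusted p = 0.95, 0.496 and 0.794). A distal intronic site of SLC7A11, the cystine and glutamate antiporter (chr4:139161768-139161938), had 7.36 and 8.67 in tagged and 8.12 and 8.98 in endogenous libraries, which also overlap. The site in MT-ND5, a mitochondrial subunit of complex I (chrM:13601-13836), had 7.15 and 7.29 against 8.68 and 8.40, with a difference of -1.32 that did not pass in limma (adjusted p = 0.164).

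The other leading shared sites were strong in both groups and higher in endogenous. In the 3′ UTR of TTF2, a transcription termination factor (chr1:117645284-117645491), the log2 fold was 7.23 and 8.46 in the tagged and 10.58 and 9.56 in the endogenous libraries. At LRRC3DN (chr21:45880622-45880900, annotated as 3′ UTR) it was 7.53 and 9.28 against 10.63 and 10.65. At the distal intronic site of ZNF12, a zinc finger gene (chr7:6735881-6736027), it was 7.55 and 6.74 against 9.27 and 9.42. No tagged value reached an endogenous value at these 3 sites, and the differences of -2.23, -2.24 and -2.20 passed in limma (adjusted p = 0.0286, 0.0286 and 0.0282). With each library centred on its median, the differences were -1.08, -1.08 and -1.05 and did not pass in limma (adjusted p = 0.427, 0.429 and 0.426). TTF2 was also enriched with the substituted protein, at 3.55 and 3.56, while its clusters at the other 7 leading shared sites did not exceed 2.41.

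Among tagged-only sites, the leading ones combined high tagged folds with endogenous folds near or under 3. At THAP4 (chr2:242559325-242559944, distal intron) the log2 fold was 6.27 and 6.50 in the tagged and 3.01 and 2.56 in the endogenous libraries. In an intron of G3BP2, a stress granule protein (chr4:76595190-76595271, near a splice site), it was 5.97 and 5.17 against 2.81 and 2.37. In an intron of MDM4, a regulator of p53 (chr1:204501093-204501199, near a splice site), it was 4.87 and 5.48 against 1.90 and 1.44. No endogenous value reached a tagged value at these 3 sites, and the differences of the means were 3.59, 2.98 and 3.51. CTTNBP2NL (chr1:112951786-112951875) had 5.34 and 5.73 in tagged and 2.65 and 0.89 in endogenous libraries, a difference of 3.77. DNAJC3, a chaperone of the endoplasmic reticulum (chr13:96348247-96348405), had 4.24 and 6.52 against 2.01 and 3.65, so that the tagged libraries themselves stood far apart. ALDH8A1, an aldehyde dehydrogenase (chr6:135256508-135256620), had 4.97 and 5.39 against 3.06 and 2.73. These last differences were 2.55 and 2.28. USP15, a deubiquitinase (chr12:62674997-62675100), had 5.60 and 4.71 against 3.39 and 3.47, a difference of 1.73 at endogenous folds past 3 whose −log10 p was under 3. AP5Z1, a subunit of the AP-5 adaptor complex (chr7:4818776-4818992), had 4.87 and 5.88 in the tagged libraries, 0.84 in the first endogenous library and no listed cluster in the second.

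The largest differences toward tagged QKI-5, chosen for their size and so given as a description, included sites with almost no endogenous enrichment. At a site near a splice site on chr5:139839376-139839514 (plus strand), which carries several gene names in the annotation or none, the log2 fold was 3.97 and 5.39 in the tagged and 0.06 and 1.15 in the endogenous libraries. In an intron of BCAS2, a splicing factor of the Prp19 complex (chr1:115118582-115118704), it was 6.24 and 3.63 against 1.06 and 1.15. In an intron of SLIRP, a mitochondrial RNA-binding protein (chr14:78202047-78202153), it was 4.54 and 4.92 against 0.26 and 1.89. No endogenous value at these sites exceeded 1.89, and the differences were 4.07, 3.83 and 3.66. SECISBP2, which binds selenoprotein mRNAs (chr9:91942314-91942403), had 4.73 and 4.87 against 1.26 and 1.15. KLRD1 (chr12:10394869-10394991) had 4.17 and 5.19 against 0.58 and 1.89. None of these 5 sites had a listed cluster with the substituted protein. All 8 of the largest differences toward tagged were at tagged-only sites. Without the first and without the second tagged library the difference was 3.66 and 3.53 at SECISBP2 and 3.71 and 3.48 at THAP4, and 2.52 and 5.14 at BCAS2, where the tagged libraries differed most.

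The leading endogenous-only sites had folds above 6 in both endogenous libraries and mostly a low but listed tagged fold. At FAM120B (chr6:170707751-170708011, distal intron) the log2 fold was 1.36 and 1.64 in the tagged and 6.62 and 8.28 in the endogenous libraries. In the 3′ UTR of BICD2, a dynein adaptor (chr9:95475786-95476054), it was 1.29 and 1.90 against 8.16 and 6.51. BCL2L11, which encodes the pro-apoptotic protein BIM, had a distal intronic site (chr2:111893331-111893669) with 2.41 and 1.12 against 6.85 and 6.76. The differences were -5.95, -5.74 and -5.04, with each tagged value under 2.5 and each endogenous value above 6. EPHA6, an ephrin receptor (chr3:96711031-96711240), had 2.73 and 1.63 against 6.56 and 7.27. SLC19A1, the reduced folate carrier (chr21:46946976-46947758), had 2.90 and 1.68 against 6.93 and 6.81. The differences were -4.74 and -4.58, and the tagged −log10 p at these sites ran from 2.69 to 7.21.

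At 3 of the 8 leading endogenous-only sites a tagged cluster was missing. For CANT1, a nucleotidase (chr17:76998876-76999044, distal intron), neither tagged library listed a cluster, against endogenous folds of 6.79 and 6.80. At chr22:18360564-18360671 in MICAL3, in the same annotated region class as its strongest shared site, neither did, against 7.70 and 7.25. For INPP5A, an inositol polyphosphate phosphatase (chr10:134362984-134363356, distal intron), the first tagged library had 2.87 and the second none, against 7.34 and 6.66. These sites could not be fitted, because they lacked a cluster above 0 in all 4 libraries.

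Other large differences toward endogenous QKI included a site past the thresholds in 1 tagged library. NKD1, a Wnt pathway antagonist (chr16:50612951-50613857), had 2.46 and 3.41 in tagged and 7.78 and 8.41 in endogenous libraries, a difference of -5.16. ZDHHC21, a palmitoyltransferase (chr9:14658329-14658461), had 1.18 and 1.25 against 6.99 and 5.84, and VEZT, an adherens junction protein (chr12:95693073-95693193), had 0.87 and 0.88 against 6.09 and 5.63. Both of these sites were endogenous-only, with no tagged value above 1.25 and no endogenous value under 5.63.

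**Figure D3:**
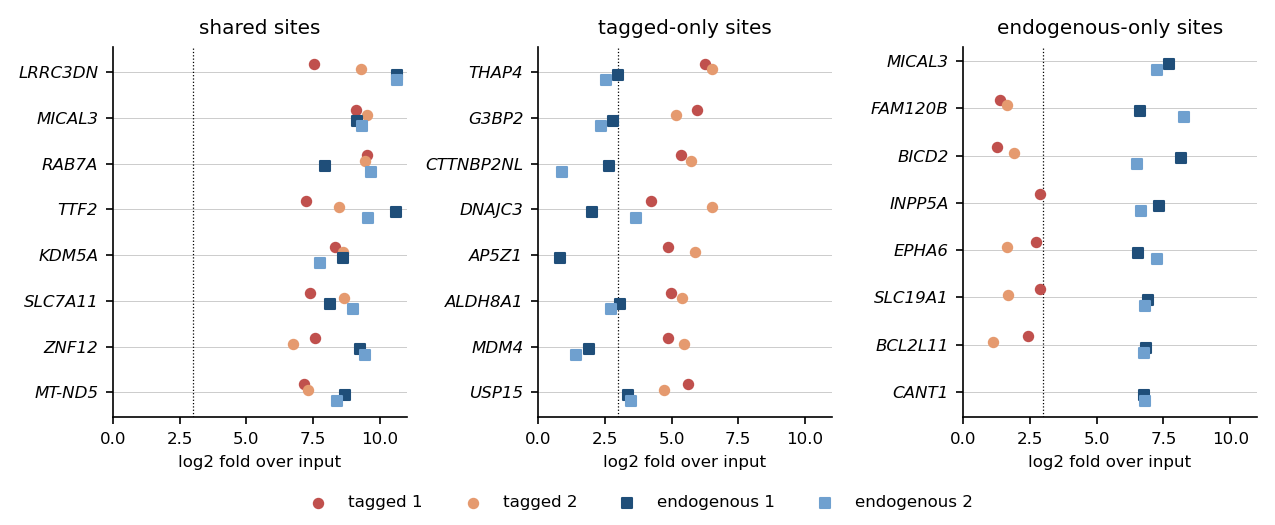
Log2 fold over input in each of the 4 libraries (horizontal axis, no unit beyond log2) at the 8 sites with the highest mean fold of each class, 1 per gene, with the threshold of 3 as a dotted line; a missing point means no listed cluster. Tagged and endogenous points intermix at MICAL3, RAB7A, KDM5A and SLC7A11 in the shared panel. They stand apart at all tagged-only sites and at the endogenous-only sites that have a tagged point, which CANT1 and MICAL3 lack.

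The sites fell into the same kinds of transcript region in both groups, with introns far ahead. Of the enriched clusters with an annotation, 65.0% and 65.7% in the tagged and 68.2% and 68.5% in the endogenous libraries lay in distal introns, away from splice sites. A further 11.15% and 11.8% against 12.3% and 12.1% lay in introns near a splice site. Clusters at 5′ splice sites made up 2.78% against 2.62% on average and those at 3′ splice sites 2.59% against 2.31%. The 3′ UTR share was higher for tagged QKI-5, at 6.66% and 5.61%, a mean of 6.13% ± 0.75 (SD, n = 2), than for endogenous QKI, at 3.94% and 3.79%, a mean of 3.86% ± 0.10 (SD, n = 2). Mitochondrial transcripts held 0.767% ± 0.011 (SD, n = 2) of tagged and 0.323% ± 0.030 (SD, n = 2) of endogenous clusters. Groups did not overlap in any of the 10 classes except coding exons, so this was not particular to distal introns, 3′ UTRs or mitochondrial transcripts. The exact permutation p was 0.33 for each class without overlap (0.37 adjusted over 10 classes). For coding exons the shares were 1.68% and 1.73% and the groups overlapped. The annotation came from the endogenous files, so 179 (3.81%) and 426 (8.24%) enriched tagged clusters without an endogenous cluster under them have no region, and the shares depend on this. With these clusters in the denominator the difference, tagged minus endogenous, went from -3.0 to -6.94 percentage points for distal introns, from -0.70 to -1.40 for introns near a splice site and from 0.28 to 0.13 for 3′ splice sites, that for 5′ splice sites turned to -0.0089, and that for 3′ UTRs was 1.91.

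**Figure D4:**
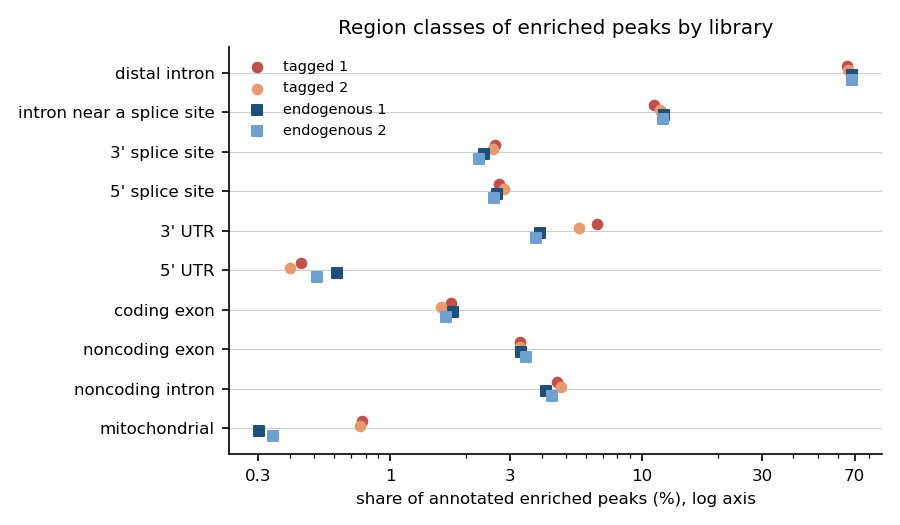
Share of annotated enriched clusters (%, log axis) in 10 region classes, 1 point per library. Distal introns hold 65.0% to 68.5% in every library. The 2 tagged libraries stand above both endogenous libraries for 3′ UTRs, mitochondrial transcripts, noncoding introns and both splice site classes, and the groups overlap only for coding exons.

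The share of endogenous sites that were also tagged sites lay in a narrow range for most regions and was higher in 3′ UTRs and mitochondrial transcripts, a difference that was not tested. Of the 5502 endogenous sites in distal introns, 28.6% and 25.7% were enriched in the tagged libraries, and of 945 in introns near a splice site 29.0% and 27.5%. At 231 endogenous sites on 5′ splice sites the shares were 31.2% and 29.9%, at 198 on 3′ splice sites 29.8% and 25.8%, and at 158 in coding exons 32.9% and 27.8%. In 256 endogenous 3′ UTR sites they were 41.0% and 35.9%. Of 20 endogenous sites in mitochondrial transcripts, 18 and 19 were enriched in the tagged libraries. In limma the 564 tested sites in 3′ UTRs had a median difference of -0.59, against -1.25 over all 12386 sites, with 18 (3.19%) higher in tagged and 92 (16.3%) higher in endogenous libraries, against 2.01% and 26.8% of all. All 3′ UTR sites comprised 78 shared, 29 tagged-only, 137 endogenous-only and 528 mixed sites.

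Counted by gene rather than by site, the overlap was larger. A site enriched in both tagged libraries lay in 1645 named genes and one enriched in both endogenous libraries in 3427, and 1389 genes had both, 84.4% of the tagged and 40.5% of the endogenous genes. Gene names came from the endogenous files, so 61 tagged-only and 454 mixed sites without an endogenous cluster have no gene. They are left out of these counts, and the 84.4% holds only for tagged sites with an endogenous cluster under them. A shared site lay in 1199 genes. Of 430 genes with a tagged-only site, 240 (55.8%) had a site enriched in both endogenous libraries elsewhere in the gene, while 121 had no site enriched in either endogenous library. Most of the 430 genes, 380, had a single tagged-only site. Of 2635 genes with an endogenous-only site, 863 (32.8%) had a site enriched in both tagged libraries. The nearest endogenous-enriched site lay within 1000 bases of 59 tagged-only sites (10.4%), and the nearest tagged-enriched site within 1000 bases of 616 endogenous-only sites (12.2%).

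The genes with the most shared sites mostly held endogenous-only sites as well. SLIT2, a secreted axon guidance ligand, had 7 shared and 13 endogenous-only sites, and of its 23 endogenous sites 39.1% and 34.8% were enriched in the tagged libraries. GPHN, which encodes the synaptic scaffold gephyrin, had 6 shared and 9 endogenous-only sites. ADK (adenosine kinase), G2E3, MICAL3, NLGN1 (neuroligin 1), RTTN and WDFY3 had 5 shared sites each. RTTN, a centriole protein, differed from these in having no endogenous-only site. All 6 of its endogenous sites were enriched in the first tagged library and 83.3% in the second. Its 5 shared sites had mean folds of 4.13 to 5.33 in tagged and 4.89 to 6.37 in endogenous libraries. Apart from the site at chr18:67736271, these shared sites lay between chr18:67679057 and 67680075. They are close neighbours and not independent, so the shares for RTTN rest on few separate places. At its site at chr18:67679721 the log2 fold was 5.37 and 4.93 in tagged and 5.80 and 4.89 in endogenous libraries, so the groups overlapped.

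Among the 8 genes with the most tagged-only sites, 4 had no site enriched in both endogenous libraries. This was near the share over all 430 genes with a tagged-only site, of which 240 (55.8%) had such an endogenous site. SYNJ1, which encodes synaptojanin 1, a lipid phosphatase of synaptic vesicle recycling, had 4 tagged-only sites and none enriched in both endogenous libraries. Its site starting at chr21:34097040 had log2 folds of 4.70 and 5.32 in the tagged libraries, 2.50 in the first endogenous library and no cluster in the second, and its site at 34086600 had 3.77 and 5.03 against 3.35 and 3.47. CWC27 (a spliceosome-associated cyclophilin) and MTPN (myotrophin) had 3 tagged-only sites each and ARID4A 2, also with no site enriched in both endogenous libraries. BCAS3, outside the 8, had 2 tagged-only sites as well, so the last place is a tie. At the 3 CWC27 sites the tagged means were 3.46 to 4.35 and the endogenous means 2.59 to 3.24, and no difference at its 4 tested sites passed in limma. DLEU2, a long noncoding RNA, had 4 tagged-only sites beside 1 shared and 6 endogenous-only sites. At its strongest tagged-only site, starting at chr13:50646373, the log2 fold was 4.97 and 4.48 against 1.96 and 2.89, a difference of 2.30. Of its 11 tested sites 3 were higher in tagged and 3 higher in endogenous libraries, against 2.01% and 26.8% of all tested sites. The genes here were ranked by tagged-only sites, which the same folds define, so limma counts for them are only a description. LRPPRC and PRRC2C also had 3 tagged-only sites each, beside 1 and 2 shared and 1 and 4 endogenous-only sites, and DNAJC3 had 3.

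The genes with the most endogenous-only sites differed in how these sites were spread. Those of FHIT ran from chr3:59969441 to 61235565, while those of INPP5A all lay between chr10:134358868 and 134365063. Sites as close as in INPP5A, some of them abutting, are not independent. FHIT had 20 endogenous-only sites among 31 endogenous sites, of which 16.1% and 29.0% were enriched in the tagged libraries. CMSS1 had 19 of 26, ROBO1 (an axon guidance receptor) 19 of 23, WWOX 15 of 20, GMDS 13 of 21 and MECOM 13 of 15. At the endogenous-only sites of WWOX the median of the mean folds was 1.81 for tagged and 4.19 for endogenous libraries. In limma 13 of its 28 tested sites were higher in endogenous libraries, against 26.8% of all tested sites. The genes were ranked by endogenous-only sites, which the same folds define, so limma counts for them are only a description. On the centred scale no endogenous-only site of WWOX passed in limma. A tagged cluster was listed at 69.2% to 95% of the endogenous sites of FHIT, CMSS1, ROBO1, WWOX and GMDS in each library, and at 60% and 40% of those of MECOM. INPP5A had fewer. A tagged cluster was listed at 20% and 25% of its 20 endogenous sites, and 1 of the 20 was enriched in each tagged library. Its 4 tested sites were all higher in endogenous libraries in limma, with a median difference of -3.13. On the centred scale its endogenous-only sites starting at chr10:134361717 and chr10:134363369 did not pass in limma. MICAL3 also had few listed tagged clusters, at 43.8% of 16 endogenous sites in each library, although its strongest site was shared. Over the 64 genes with at least 10 endogenous sites, 866 sites in all, the share enriched ran from 0% to 66.7% in the first tagged library (median 27.5%) and from 0% to 54.5% in the second (median 20%), against 29.7% and 26.8% over all sites.

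Tagged and endogenous clusters at a shared site were not centred on quite the same base. The median distance between the centres of the clusters of the tagged libraries was 6.5 bases, that between the endogenous libraries 10.5 bases, and that across groups 12.5 to 14.5 bases. The endogenous centre lay 7.5 to 9 bases downstream of the tagged centre in the median, against 1 base between the tagged and 0 between the endogenous libraries. The upstream edges lay close together, with median shifts of -3 to 2 bases across groups, while the downstream edge of the endogenous cluster lay 14 to 19 bases further on. Endogenous clusters were wider at these sites, with medians of 128 and 122 bases against 108 and 109. Whether this follows from fragment length, read length or cluster calling was not tested.

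U6 copies were bound in both groups, more strongly in the endogenous libraries, and are given first among the named groups because the series concerns the U6 tri-snRNP, the part of the spliceosome that pairs with 5′ splice sites. Many U6 copies have nearly the same sequence, so reads may be split among them and single copies are uncertain. Of 18 sites in 16 U6 genes and pseudogenes, 9 and 4 were enriched in the tagged and 16 and 16 in the endogenous libraries. The median log2 fold was 3.83 and 2.12 in tagged, 4.69 and 4.42 in endogenous and 3.07 and 2.91 in the libraries of the substituted protein, which was enriched at 6 and 5 of the 18. The tagged values thus spanned those of the substituted protein, unlike at shared sites in general. In limma 0 of 13 tested U6 sites was higher in tagged and 7 (53.8%) were higher in endogenous libraries, against 2.01% and 26.8% of all tested sites, with a median difference of -2.01 against -1.25 over all sites, and none passed on the centred scale. RNU6-671P, at chr12:45948365, was a shared site with log2 folds of 6.12 and 5.80 in tagged, 6.45 and 5.96 in endogenous and 4.06 and 5.51 in mutant libraries. RNU6-49P was shared as well, at 5.68 and 4.20 against 5.62 and 5.24, with 4.41 and 4.19 in the mutant libraries. At RNU6-37P the tagged libraries disagreed, with 4.22 and 0.70 against 4.81 and 6.35 in the endogenous libraries. Other small nuclear RNA genes held 0 of the sites that the endogenous annotation could name.

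Transfer RNA sites came from a single tagged library. All 12 sites, in 5 tRNA genes, were enriched in the first tagged library, with log2 folds of 3.70 to 4.32, and none was enriched in the second, with folds of 0.02 to 2.39 at the 10 listed sites. In the endogenous libraries the folds were -1.09 to 0.84 and -1.66 to -0.52. The substituted protein was enriched at 4 and 6 of the 12. At the gene annotated tRNA-Arg-TCG-1-1 the log2 fold was 3.89 and 1.97 in tagged, -0.24 and -0.52 in endogenous, and 4.50 and 4.13 in mutant libraries. All 12 sites entered through the first tagged library alone, so its higher folds follow in part from the choice of sites. The second tagged library was not enriched at any of them, and its range overlapped that of the first endogenous library. The substituted protein did not enter the choice, and its listed folds all exceeded 0.84, the highest endogenous fold. A difference between the groups at these genes was not tested. The sites of a gene abut and share clusters.

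Mitochondrial transcripts were bound in both groups. Of 26 sites in 13 genes, 18 were shared, 1 tagged-only, 1 endogenous-only and 6 mixed, and 20 and 21 were enriched in the tagged against 24 and 21 in the endogenous libraries. The median log2 fold was 3.78 and 4.10 in tagged and 4.54 and 4.25 in endogenous libraries. The substituted protein, by contrast, was enriched at none of them and its medians were 0.21 and 0.56. In limma 1 of 26 (3.85%) was higher in tagged and 0 in endogenous libraries, against 2.01% and 26.8% of all tested sites (median difference -0.45). MT-ND4, another complex I subunit, had 3 shared sites, the first of them with 5.06 and 5.68 in tagged and 6.24 and 6.38 in endogenous libraries. MT-ND2 had 3 shared sites as well, and at chrM:4711 its log2 folds of 3.46 and 3.94 overlapped the endogenous 3.89 and 3.40. MT-CYB, the cytochrome b gene, had 2. As the median difference of all sites was -1.25, these sites lay on the tagged side of it.

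Genes on a list of known QKI targets held 135 sites in 25 of 39 listed genes, with 17 shared, 4 tagged-only, 38 endogenous-only and 76 mixed, and 37 and 36 were enriched in the tagged against 102 and 91 in the endogenous libraries. In limma 2 of 79 tested sites (2.53%) were higher in tagged and 25 (31.6%) in endogenous libraries, near the 2.01% and 26.8% of all tested sites, with a median difference of -1.28 against -1.25 over all sites, and 2 of the 25 passed on the centred scale. None was enriched with the substituted protein. At CAMK2D, a calcium-dependent kinase, the shared site at chr4:114506696-114506933 had 4.90 and 6.35 in tagged and 6.28 and 6.08 in endogenous libraries, and that at 114419151 had 4.32 and 4.14 against 3.03 and 3.32. ERBB2IP (erbin) had 3 shared and 6 endogenous-only sites. Its intronic site near a splice site at chr5:65371909-65372020 had 5.72 and 5.11 against 6.12 and 5.83. That at chr5:65228925-65229058 had 3.43 and 3.99 against 5.80 and 6.80 and was higher in endogenous libraries in limma before centring (difference -2.59, adjusted p = 0.0121). TPM1 (tropomyosin 1) had 1 shared site, at chr15:63357353-63357583, with 4.63 and 5.79 against 6.75 and 8.0 (difference -2.17, adjusted p = 0.0323 in limma before centring) and 3 endogenous-only sites. NUMB had 1 shared site among 10, and PICALM had 1 shared and 3 endogenous-only sites.

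The QKI gene itself, which the transfected plasmid partly duplicates as coding sequence, held 14 sites, of which 3 were shared, 1 tagged-only, 4 endogenous-only and 6 mixed. None of the 8 sites outside the mixed class was annotated as coding exon. In the 3′ UTR at chr6:163994728-163994900 the log2 fold was 7.92 and 4.54 in tagged and 5.67 and 4.53 in endogenous libraries, so that the groups overlapped. The 2 endogenous-only 3′ UTR sites just downstream, at 163994901-163994961 and 163995140-163995211, had no listed tagged cluster. Their endogenous log2 folds were 3.45 and 3.81 at the first and 4.39 and 4.85 at the second. The tagged-only site lay in a distal intron at chr6:163848367-163848457, with 4.54 and 3.83 in tagged and 1.43 and 2.15 in endogenous libraries (difference 2.40). Shared intronic sites at 163868443 and 163971321 had 4.90 and 3.44 against 4.96 and 6.17, and 3.46 and 4.39 against 4.09 and 4.21.

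Other genes of the STAR and KH families, QKI included, held 112 sites in 17 of 26 genes, with 10 shared, 2 tagged-only, 28 endogenous-only and 72 mixed sites. In limma 4 of 69 (5.80%) were higher in tagged and 16 (23.2%) higher in endogenous libraries, against 2.01% and 26.8% of all tested sites (median difference -1.12 against -1.25), none of the latter on the centred scale. FMR1, the fragile X KH protein, had 5 endogenous-only sites and no shared one, and near a splice site at chrX:147006619-147006823 the log2 fold was 2.83 and 2.56 in tagged and 6.06 and 5.99 in endogenous libraries (difference -3.33). Its paralog FXR1 had 1 shared, 1 tagged-only and 1 endogenous-only site. The tagged-only FXR1 site at chr3:180681346-180681468 had 4.46 and 3.19 against 1.5 and 0.56 (difference 2.79), and its shared site at chr3:180689440-180689643 had 4.13 and 3.74 against 5.24 and 4.71. PCBP2, a poly(C)-binding protein, had 1 shared and 5 endogenous-only sites. IGF2BP2 had 1 shared site, with 4.43 and 5.31 against 5.65 and 5.52.

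Splicing regulator genes held 103 sites in 28 of 40 genes, with 6 shared, 1 tagged-only, 28 endogenous-only and 68 mixed. In limma 1 of 76 (1.32%) was higher in tagged and 23 (30.3%) higher in endogenous libraries, near the 2.01% and 26.8% of all tested sites (median difference -1.39 against -1.25), and 3 of the 23 passed on the centred scale. CELF1 had the strongest shared site of the list, at chr11:47566906-47567179, with 7.80 and 6.85 in tagged and 7.76 and 6.45 in endogenous libraries, which overlap. MBNL2, a muscleblind protein, had 2 shared sites, and at the 3′ splice site chr13:98017220-98017443 the fold was 4.02 and 3.96 against 5.64 and 5.08. RBFOX2 had 7 endogenous-only and 12 mixed sites and none shared, the strongest at chr22:36190859-36191031 with 2.22 and 2.90 against 6.44 and 5.60 (difference -3.46). The single tagged-only site lay in PTBP2, at chr1:97204808-97204983, with 4.97 and 3.06 against 2.06 and 1.15 (difference 2.40).

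Genes for U6 and tri-snRNP proteins held 17 sites in 8 of 23 genes, with 3 shared, 1 tagged-only, 4 endogenous-only and 9 mixed. In limma 1 of 14 (7.14%) was higher in tagged and 2 (14.3%) in endogenous libraries, against 2.01% and 26.8% of all tested sites (median difference -0.91 against -1.25), and 1 of the latter passed on the centred scale, in PRPF3. SNRNP40, a U5 component, held 2 of the shared sites and the tagged-only site, at chr1:31750174, where the fold was 4.06 and 5.37 in tagged and 2.72 and 1.56 in endogenous libraries (difference 2.57). PRPF3, a U4/U6 protein, had an endogenous-only site in a coding exon at chr1:150316997, with 0.63 and 0.90 against 5.53 and 3.62 (difference -3.81). The substituted protein had no enriched cluster at any of the 17. Nuclear long noncoding RNA genes held 13 sites in 5 of 11 genes, 1 of them shared, in OIP5-AS1, with 3.17 and 4.53 against 4.62 and 3.81. NEAT1, the paraspeckle scaffold, had 3 endogenous-only sites, and at chr11:65196037 the fold was 1.5 and 1.45 in tagged and 4.93 and 4.19 in endogenous libraries (difference -3.09). MALAT1 had 1 mixed site, with 0.64 and 1.20 against 2.96 and 3.20.

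**Figure D5:**
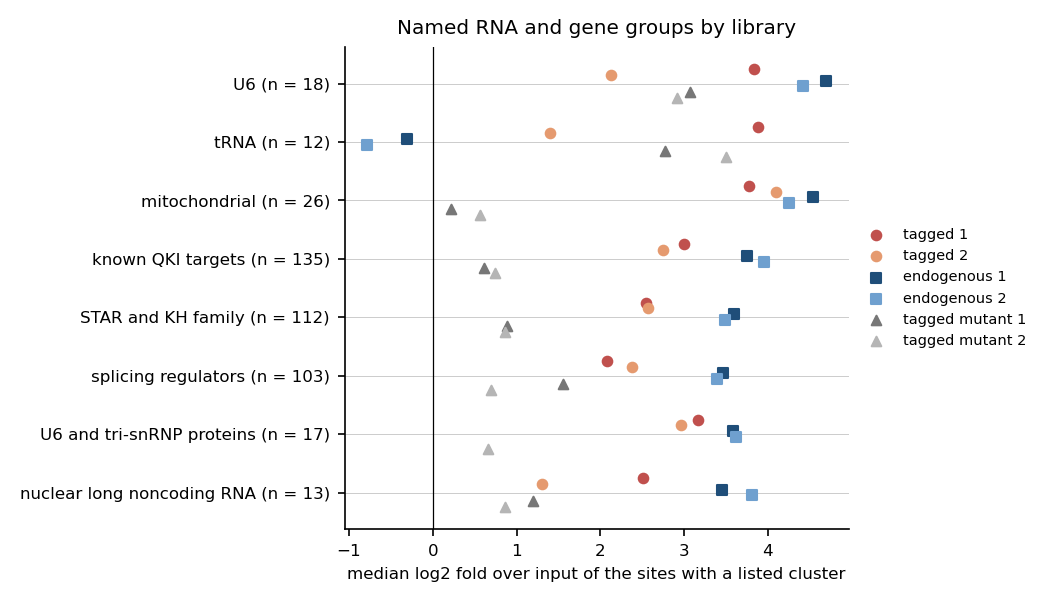
Median log2 fold over input (horizontal) in the 2 tagged, 2 endogenous and 2 mutant libraries over the sites of each named group that had a listed cluster in that library, with the number of sites in brackets. Mutant medians are 0.21 and 0.56 at mitochondrial sites but 3.07 and 2.91 at U6 sites, and the endogenous medians lie below 0 at the 12 tRNA sites.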

How the data were processed

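Clusters of 4 immunoprecipitation libraries (2 tagged, 2 endogenous, grouped by their titles) were compared, with 2 mutant libraries as background. Inputs enter through the authors' folds. The tools named are STAR, cutadapt, SAMtools and UMI-tools, with build hg19, per the submitters' processing notes. The peak caller, tool versions and read depth are not given in the sources used. The deposited log2 fold of each cluster is the authors' value over input, per the file headers. The deposited −log10 p is the authors' p-value for that fold, capped at 400. Tagged lists hold only folds above 0, and 155229 and 33333 endogenous clusters at or below 0 were deposited.

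Enriched clusters sharing at least 1 base on the same strand were joined into sites. A site took, per library, its overlapping cluster with the highest −log10 p. Regions and genes are those of the endogenous files, and sites with several gene names were left unnamed. Log2 folds of sites with a cluster above 0 in all 4 libraries were fitted with limma 3.58.1 (lmFit and eBayes, R 4.3.3), adjusted by Benjamini-Hochberg over all sites, and "passed" means an adjusted p of at most 0.05. Library means were compared by exact two-sided permutation tests, and intervals are exact Clopper-Pearson (95%, counting error only). Tables were made with Python 3.11.15, pandas 2.3.3 and scipy 1.17.1, and overlaps were checked against bedtools.

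On simulated data for tagged against endogenous over 12386 sites, limma called 0% of sites shifted by 1, 4% at 2, 56% at 3 and 92% at 4 on the log2 scale, and 3 of 12186 unshifted sites. The simulated unshifted sites had 1 common mean in all 4 libraries and were not chosen by their simulated folds. The real sites had a median difference of -1.25 and were chosen by their folds, so the false calls do not describe them.

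Genes named were those of the 8 sites with the highest mean fold per class (1 per gene), the 8 genes with the most sites per class, the 8 largest limma differences in each direction, and, for each list, up to 6 genes with the most sites, of which not all are printed. A few sites that this rule names are not reported here. Sites, lists and members were chosen with earlier results of these data known. Alternatives were other thresholds, joining distances, cluster choices, limma settings, the authors' reproducible lists and leaving out each library. No hg19 genome was used here, so no site sequence is printed.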

Additional observations from a re-analysis of the deposited data

How the results depend on the processing

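Of the alternative values that answer a comparison, 134 kept their direction and their side of the threshold, 45 moved and 6 turned. Among the first are region differences that changed in size, such as distal introns with unannotated clusters kept (-6.94 percentage points). With a log2 fold of at least 2 and of at least 4 in place of 3, endogenous clusters enriched in tagged libraries came to 29.51% and 19.68%, shared sites to 2740 and 557, tagged-only sites to 1051 and 141, and endogenous sites enriched in tagged libraries to 32.76% and 24.89% (94.51% and 84.78% at folds of 7 or more, 47.34% and 32.18% in 3′ UTRs, 31.39% and 24.22% in distal introns). Endogenous-only sites came to 2306 at a fold of 4, and tagged-only sites to 349 at a −log10 p of 5. Counting a group as enriched from 1 library gave 3836 shared, 2846 tagged-only and 12205 endogenous-only sites, and the authors' reproducible lists gave 2504, 1167 and 9398. Leaving out 1 library at a time gave 652 to 2097 tagged-only and 5620 to 11295 endogenous-only sites, and shares of endogenous sites enriched in tagged libraries of 17.94% to 29.71% (73.53% to 93.48% at folds of 7 or more, 24.91% to 40.86% in 3′ UTRs, 17.18% to 28.61% in distal introns); the low values come from leaving out an endogenous library. Region differences (tagged minus endogenous, percentage points) turned: 5′ splice site, -0.0442 at a fold of 4 and -0.008867 with unannotated clusters kept; 5′ UTR, 0.003919 at a fold of 2; noncoding exon, 0.4846 at a fold of 4; and coding exon, -0.1243 to 0.02217 over the left-out libraries. The cause was not tested. In limma 731 and 191 sites were higher in tagged and endogenous libraries after centring, 656 in tagged with missing clusters set to 0, and 0 to 112 and 0 to 1663 with a library left out. With the replicate block 300 and 3658 sites passed, but the numbers do not pair the libraries: their deviations correlated at 0.0165 over 12386 sites. Of the alternative values for the 16 named limma sites, 152 kept their call and 32 lost it, all on leaving out a tagged library, where the differences kept their sign. Read depth is unknown, and low folds rest on few reads.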
